A study of Mus musculus with 6 samples.

Results

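Genes of cholesterol synthesis (Hmgcs1, Idi1, Fdps, Fdft1 and Sqle) and of its control by the sterol regulatory element-binding proteins, or SREBPs (Insig1, Srebf1 and Srebf2), were followed in injured carotid arteries. All probe sets that the array annotation assigns to exactly 1 of these symbols were taken, which gave 18 of the 45037 probe sets tested and 8 of the 18193 genes named by a probe set of 1 gene. The arteries came from C57BL/6 mice (C57BL/6J and male, aged 10 to 12 weeks, in the study's methods). SMC-IRF9-TG mice carried the full-length mouse IRF9 cDNA with an HA tag under the SM22α promoter, which is active in smooth muscle cells. The study chose transgenic line 4 for its main phenotypes and also reports larger neointima in other lines. The sample titles do not name the line used for the arrays. NTG mice carried no transgene. Both genotypes had the same wire injury of the carotid artery and were compared at 14 days after it, with no uninjured artery in the series. Each of the 3 NTG and 3 SMC-IRF9-TG samples was a pool of 3 to 5 vessels, hybridized from 400 ng of total RNA to 1 Affymetrix array. The labels call the pools biological replicates and do not name the animals in each. The p-values here set a difference between genotypes against the variation between pools, not between animals.

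Cholesterol is built in the cytosol and endoplasmic reticulum from acetyl-CoA through mevalonate, the isoprenoid diphosphates and squalene, and most enzymes of the route are transcribed under SREBP2. SREBPs are held in the endoplasmic reticulum by SCAP and the INSIG proteins when sterols are plentiful, and are cut free in the Golgi by the proteases encoded by Mbtps1 and Mbtps2 when sterols are scarce. In the artery wall the route also supplies the isoprenoids that prenylate small GTPases, and the interferon-induced enzyme encoded by Ch25h makes an oxysterol that restrains SREBP cleavage.

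Promoter sequence from RefSeq was given for 5 of the 8 genes, and a pair of them is shown: Insig1, whose difference passed the test, and Hmgcs1, the only member whose window holds the letters TCACNCCAC of a sterol regulatory element. Each run is the 250 bases before the annotated start on the plus strand of GRCm38.p6, at chr5:28071162-28071411 for Insig1 and chr13:119690101-119690350 for Hmgcs1. Capitals mark TCACNCCAC and the NF-Y box CCAAT, both searched on both strands, so that ATTGG is CCAAT on the other strand.
Insig1: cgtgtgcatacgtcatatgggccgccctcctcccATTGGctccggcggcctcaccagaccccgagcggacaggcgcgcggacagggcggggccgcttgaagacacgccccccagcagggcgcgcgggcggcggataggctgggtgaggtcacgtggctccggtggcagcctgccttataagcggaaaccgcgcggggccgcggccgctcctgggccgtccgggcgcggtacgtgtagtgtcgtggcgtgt
Hmgcs1: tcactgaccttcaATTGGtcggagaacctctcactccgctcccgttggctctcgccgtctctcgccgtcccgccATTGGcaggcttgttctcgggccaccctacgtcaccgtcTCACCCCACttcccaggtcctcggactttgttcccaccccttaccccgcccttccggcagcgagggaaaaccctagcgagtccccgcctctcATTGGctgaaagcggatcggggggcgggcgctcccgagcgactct
In windows of 250 bases before to 50 after the start, TCACNCCAC was found 137 bases before the Hmgcs1 start and in none of the other 6 member promoters, and 1.24% of the 32851 promoters in the table hold it. CCAAT lay in 6 of the 7 member promoters (37.4% of all promoters), and the Sp1 box GGGCGG in 6 of the 7 (35.7%). The core AANNGAAA of IRF binding elements was in none of the 7 and in 23.9% of all promoters. No 2 of these matches overlapped within a member promoter. Srebf1 has 3 promoters in the table and Idi1, Insig1, Hmgcs1 and Srebf2 have 1 each; Sqle, Fdps and Fdft1 have no entry.

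Insig1 was the only one of the 8 genes whose level differed past the threshold, and it was lower in SMC-IRF9-TG arteries. Values are log2 levels from RMA, a difference is SMC-IRF9-TG minus NTG, and a gene is called by its probe set of highest mean when its p from limma, adjusted over all 45037 probe sets, is under 0.05. No member was called higher, 1 was called lower and 7 did not pass. Across all 18193 genes 3.62% were called, 3.11% higher and 0.511% lower. At an unadjusted p under 0.05, 1 of the 8 was higher and 2 were lower. The share of all genes at that level is not given here, so such counts, here and below, have no background beside them. The methods' t-test called none of the 8 after adjustment. Over all 45037 probe sets it called 0 higher and 1 lower, so the lack of a call by it, here and below, carries little weight. The median difference of the 8 was 0.14, beside -0.05 over all genes. Over the 18 probe sets, 8 differences were positive and 10 negative, and none was called higher and 1 lower (2.75% of all probe sets were called, 2.37% higher and 0.373% lower). The SMC-IRF9-TG and NTG pools did not overlap in 6 of the 18, 1 higher and 5 lower, where 12.1% of all probe sets lay apart higher and 19.2% lower.

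**Figure D1:**
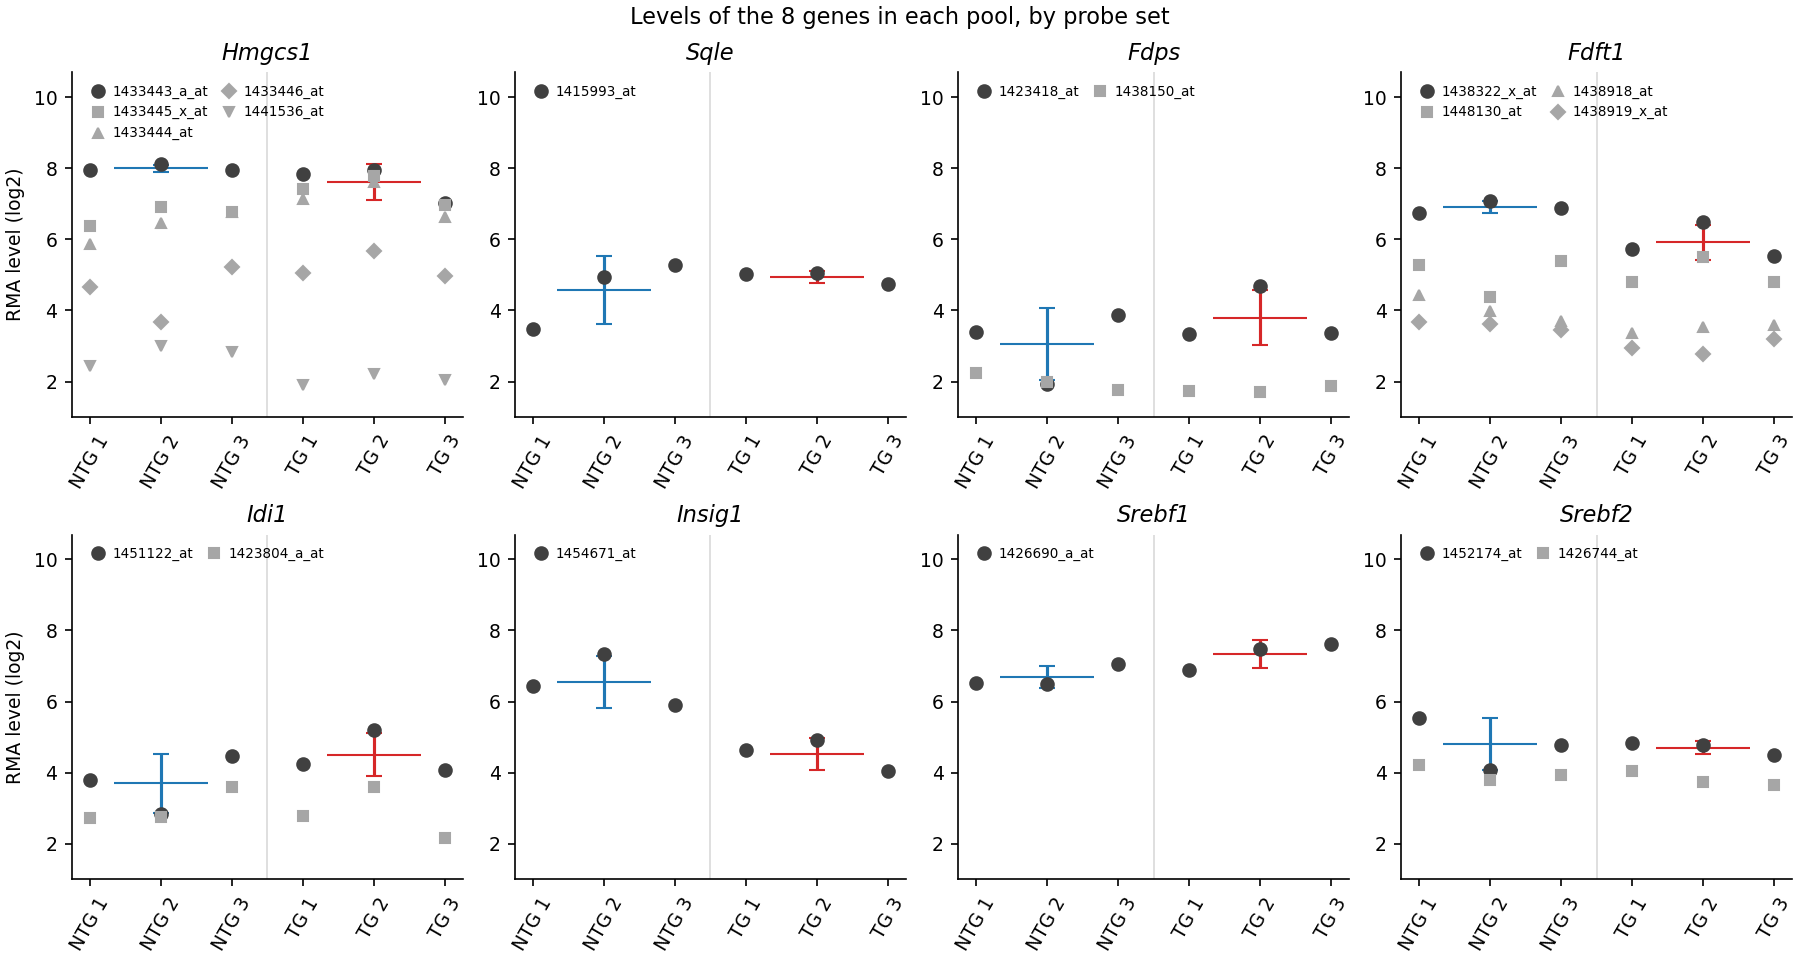
Log2 level of every probe set of the 8 genes in each of the 6 pools (points; TG is SMC-IRF9-TG), with the brightest probe set of a gene in dark grey, its group means and their SD (n = 3 pools per genotype) as coloured bars, and the other probe sets in light grey. For Insig1 the SMC-IRF9-TG pools read 4.05 to 4.93 and the NTG pools 5.89 to 7.33, whereas the pools of both genotypes overlap by the brightest probe sets of Hmgcs1, Idi1, Fdps, Sqle, Srebf1 and Srebf2.

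INSIG1 is the membrane protein that binds SCAP and keeps SREBP in the endoplasmic reticulum, and its gene is itself an SREBP target. Probe set 1454671_at, the only one for Insig1 (chromosome 5, 28071412 to 28078662 in GRCm38.p6), stood at 6.44, 7.33 and 5.89 for NTG pools 1, 2 and 3 and at 4.63, 4.93 and 4.05 for SMC-IRF9-TG pools 1, 2 and 3. All SMC-IRF9-TG pools lay under all NTG pools, and the gap between the closest pools was smaller than the range of the NTG pools. The mean fell from 6.56 ± 0.73 to 4.54 ± 0.45 (SD, n = 3 pools each), a difference of -2.02 (standard error 0.38, 95% confidence interval -2.89 to -1.15, adjusted p = 0.0320 from limma), or 4.06-fold lower. By exact permutation the 2-sided p was 0.1, the smallest that 3 against 3 allows. Leaving out NTG pool 2, the highest, gave -1.63 (adjusted p = 0.0391 from limma), and leaving out NTG pool 3 gave -2.35 (adjusted p = 0.0255). The direction held without each of the other 4 pools but the adjusted p rose past the threshold, to 0.0902 without NTG pool 1 and 0.104, 0.0868 and 0.116 without SMC-IRF9-TG pools 1, 2 and 3. In a bulk vessel, fewer cells that express a gene and less of its RNA per cell cannot be told apart.

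Markers of other cells differed between the same arrays, and their part in the Insig1 difference was not tested. Of 15 macrophage markers 14 were called higher, with a log2 summed level of 8.06 to 9.04 in NTG and 12.4 to 12.9 in SMC-IRF9-TG pools, and 6 of 8 fibroblast markers were called higher (12.5 to 12.6 and 14.3 to 14.4). Proliferation markers were called higher in 5 of 9. None of 10 smooth muscle markers was called, and none had an unadjusted p under 0.05; their summed level was 14.0 to 14.5 in NTG and 14.5 to 14.6 in SMC-IRF9-TG pools. Of 10 adipocyte markers measured 1 was called higher, which was Lpl, and Adipoq, Cidec, Pck1 and Lipe lay under the lower quartile of the arrays in both groups. The other 9 adipocyte markers all had negative differences that did not pass, and the median of the 10 was -0.20. The summed adipocyte level, 9.54 to 10.1 in NTG and 10.3 to 10.6 in SMC-IRF9-TG pools, holds Lpl, whose mean was 7.38 and 9.81. Endothelial markers were called higher in 1 of 10. None of 6 Schwann cell, 9 skeletal muscle or 9 thyroid and epithelial markers was called by limma or the methods' t-test, and 5 of the thyroid and epithelial and 2 of the skeletal muscle markers were lower at an unadjusted p under 0.05.

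Hmgcs1 encodes the cytosolic HMG-CoA synthase, an early enzyme of the route. None of its 5 probe sets passed, and they did not share a sign, although the annotation ties 4 of them to the same sequence record. The brightest, 1433443_a_at, read 7.95, 8.12 and 7.94 in NTG and 7.85, 7.94 and 7.02 in SMC-IRF9-TG pools, a difference of -0.40 (standard error 0.27, 95% confidence interval -1.01 to 0.22, adjusted p = 0.389 from limma) in which SMC-IRF9-TG pool 3 lay lowest and the other pools overlapped. In contrast, 1433445_x_at read 6.37, 6.91 and 6.76 in NTG and 7.40, 7.79 and 6.98 in SMC-IRF9-TG pools, all of the latter higher (difference 0.71, standard error 0.26, adjusted p = 0.170). In Affymetrix naming, the suffix _x_at means that some probes may also match other transcripts. The differences of 1433444_at and 1433446_at were 0.76 (adjusted p = 0.203) and 0.72 (adjusted p = 0.295), with overlap. Probe set 1441536_at lay lower in all SMC-IRF9-TG pools (adjusted p = 0.125), whose mean was under the lower quartile of the arrays. Averaging all probe sets of the gene turned the Hmgcs1 difference to 0.22.

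Idi1 and Fdps make and join the isoprenoid units. IDI1 isomerizes isopentenyl diphosphate, and its brighter probe set 1451122_at read 3.79, 2.83 and 4.48 in NTG and 4.24, 5.19 and 4.07 in SMC-IRF9-TG pools. NTG pool 2 was the lowest and SMC-IRF9-TG pool 2 the highest of the 6, and the other pools overlapped (difference 0.80, standard error 0.44, 95% confidence interval -0.20 to 1.81, adjusted p = 0.301 from limma). FDPS makes farnesyl diphosphate, the branch point between sterols and prenyl groups. Fdps probe set 1423418_at read 3.39, 1.92 and 3.88 in NTG and 3.34, 4.69 and 3.36 in SMC-IRF9-TG pools, with the same pair of extreme pools (difference 0.74, standard error 0.54, 95% confidence interval -0.49 to 1.96, adjusted p = 0.419). Both differences shrank without NTG pool 2, to 0.37 for Idi1 and 0.16 for Fdps. The second probe sets gave -0.18 for Idi1 (1423804_a_at, adjusted p = 0.798) and -0.23 for Fdps (1438150_at, adjusted p = 0.490, with both means under the lower quartile).

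FDFT1, squalene synthase, takes the first step committed to sterols, and its 4 probe sets differed among themselves. The brightest, 1438322_x_at, read 6.75, 7.08 and 6.89 in NTG and 5.74, 6.48 and 5.52 in SMC-IRF9-TG pools. All SMC-IRF9-TG pools lay lower, but the difference of -0.99 (standard error 0.27, 95% confidence interval -1.61 to -0.37) did not pass, with an adjusted p of 0.0948 from limma. The pools also lay apart, lower in SMC-IRF9-TG, for 1438918_at (difference -0.54, adjusted p = 0.217) and 1438919_x_at (difference -0.61, adjusted p = 0.138). By 1448130_at, the one Fdft1 probe set for which the annotation gives a RefSeq transcript, the levels were 5.28, 4.39 and 5.40 in NTG and 4.79, 5.51 and 4.81 in SMC-IRF9-TG pools. These overlapped, with a difference of 0.01 (adjusted p = 0.983).

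SQLE, squalene epoxidase, follows FDFT1 and is one of the slow steps of the route. Its only probe set, 1415993_at, read 3.48, 4.93 and 5.29 in NTG and 5.03, 5.06 and 4.73 in SMC-IRF9-TG pools. The SMC-IRF9-TG pools lay within the range of the NTG pools, and the difference of 0.37 (standard error 0.42, 95% confidence interval -0.59 to 1.34, adjusted p = 0.603 from limma) rested on NTG pool 1, without which it was -0.17.

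**Figure D2:**
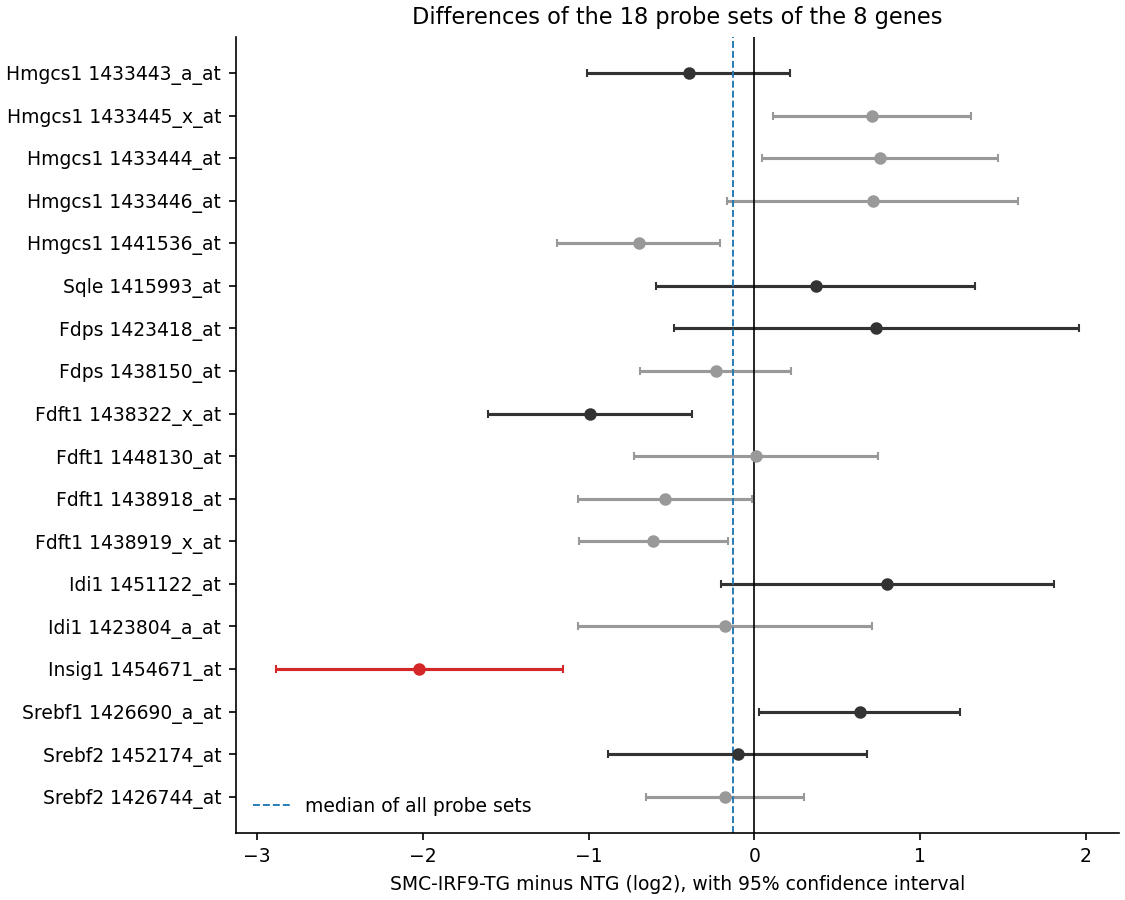
Difference of log2 levels, SMC-IRF9-TG minus NTG, for each of the 18 probe sets of the 8 genes, with its 95% confidence interval from limma (n = 3 pools per genotype); red marks the called probe set, dark grey the brightest of a gene that was not called, and the dashed line the median of all probe sets. The interval of Insig1, from -2.89 to -1.15, lies farthest from 0, and the probe sets of Hmgcs1 and Fdft1 fall on different sides of it or at it.

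Of the regulators, Srebf1 encodes SREBP1, which acts mainly on fatty acid synthesis, and Srebf2 encodes SREBP2. Srebf1 probe set 1426690_a_at read 6.52, 6.49 and 7.06 in NTG and 6.88, 7.47 and 7.63 in SMC-IRF9-TG pools, with NTG pool 3 above SMC-IRF9-TG pool 1. Its difference of 0.64 (standard error 0.27, 95% confidence interval 0.03 to 1.24) did not pass after adjustment (adjusted p = 0.209 from limma). Srebf2 probe set 1452174_at read 5.53, 4.09 and 4.79 in NTG and 4.83, 4.78 and 4.50 in SMC-IRF9-TG pools, a difference of -0.10 (standard error 0.34, adjusted p = 0.872) in which the NTG pools enclosed the others. The difference was 0.26 without NTG pool 1, the highest. The second Srebf2 probe set, 1426744_at, gave -0.18 (adjusted p = 0.616).

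The wider cholesterol list held 21 enzymes, of which 18 were measured, and none of the 18 was called by limma. The methods' t-test called none of them either, but it called only 1 of all 45037 probe sets. At an unadjusted p under 0.05, 1 was higher and 3 were lower. Their differences ran from -0.99 for Fdft1 to 0.98 for Ebp, a sterol isomerase, with 7 positive, 11 negative and a median of -0.05, equal to that of all genes at this rounding. The pools lay apart in 4 of the 18: higher for Msmo1, a sterol demethylase (difference 0.63, adjusted p = 0.221; -0.39 by 1459627_at), and lower for Fdft1, Dhcr7, the last enzyme of one arm of the route (difference -0.67, adjusted p = 0.135), and Hsd17b7 (difference -0.42, adjusted p = 0.259). The other 3 probe sets of Hsd17b7 gave -0.50 to 0.19. By brightest probe set 16.1% of all genes lay apart higher and 16.1% lower.

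Pools of 1 genotype differed in these enzymes. SMC-IRF9-TG pool 2 was the highest of the SMC-IRF9-TG pools in 13 of the 18 enzymes, where it was highest in 29.8% of all genes. NTG pool 2 was the lowest NTG pool in 8 of the 18 (37.7% of all genes). For Idi1, Fdps, Msmo1 and Ebp, 4 of the 18, it was the lowest of all 6 pools while SMC-IRF9-TG pool 2 was the highest, a pattern of 5.68% of all genes. The same pools are the extremes of the RNA integrity controls: the Gapdh control probe set at the 3′ end read 6.32 log2 units above that at the 5′ end in NTG pool 2 and 1.36 in SMC-IRF9-TG pool 2, with 2.10 to 3.67 in the other 4. The part of RNA quality in these levels was not tested. For Insig1 SMC-IRF9-TG pool 2 was also the highest of its genotype, but NTG pool 2 was the highest of the 6.

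**Figure D3:**
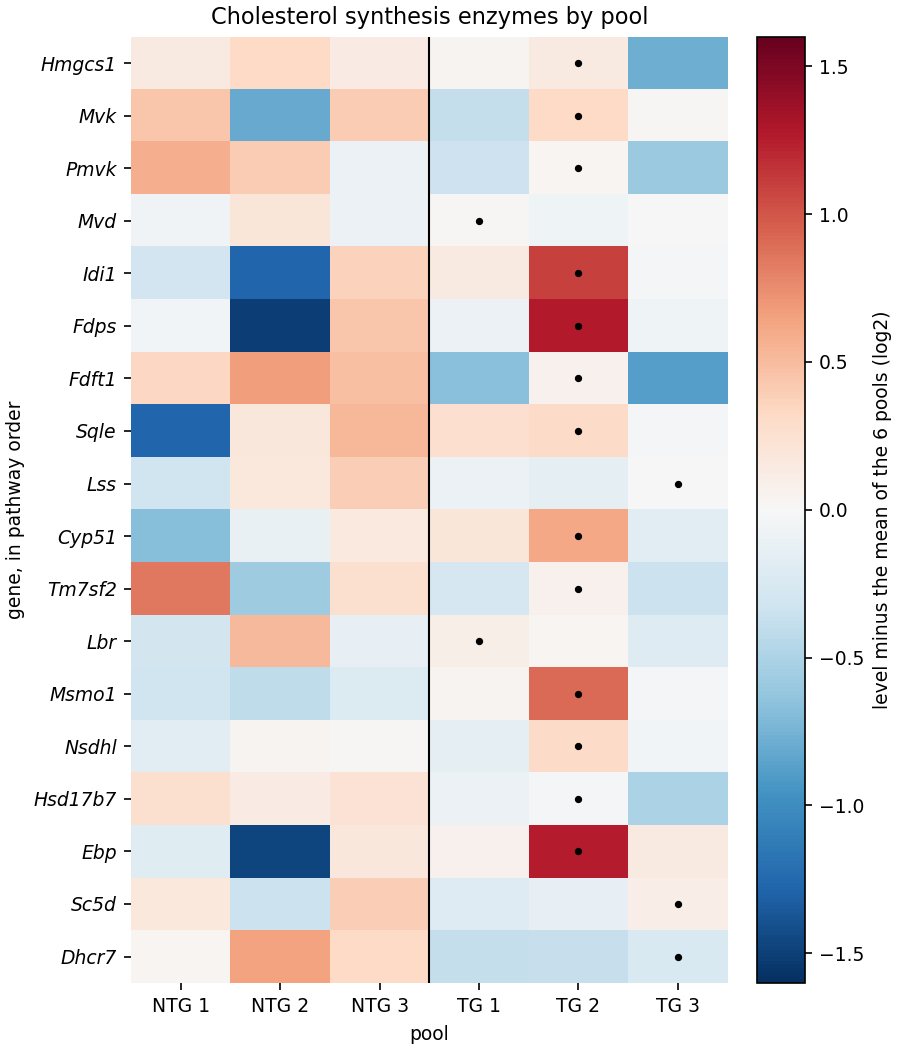
Level of each of the 18 measured cholesterol enzymes in each of the 6 pools (TG is SMC-IRF9-TG), as the log2 deviation from the gene's own mean over all pools (colour), with a dot on the highest SMC-IRF9-TG pool. The dot lies on SMC-IRF9-TG pool 2 in 13 of the 18. Idi1, Fdps, Msmo1 and Ebp are highest of all 6 pools in SMC-IRF9-TG pool 2 and lowest of all 6 in NTG pool 2.

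SREBP processing genes besides the members did not pass by their brightest probe sets. Of the 7 genes of the list, which includes Insig1, Srebf1 and Srebf2, 1 was called lower and none higher, although 3 were higher at an unadjusted p under 0.05, and the median was 0.12. Mbtps2, the site-2 protease, read 4.49, 5.75 and 5.56 in NTG and 6.74, 6.59 and 6.20 in SMC-IRF9-TG pools, apart but not past the threshold (difference 1.24, standard error 0.34, adjusted p = 0.0933 from limma). Mbtps1, the site-1 protease, also lay apart higher (difference 0.63, adjusted p = 0.115), whereas its other probe sets 1431386_s_at and 1431385_a_at had negative differences that did not pass. Scap differed by 0.12 (adjusted p = 0.811) and, by 1442885_at, by -0.30 (adjusted p = 0.396). Insig2, the paralogue of Insig1, read 6.02, 7.18 and 6.18 in NTG and 6.61, 6.62 and 6.34 in SMC-IRF9-TG pools, with overlap and a difference of 0.06 (1417980_a_at, adjusted p = 0.914). Its other probe sets gave 0.39 (1417981_at, adjusted p = 0.313) and 0.97 (1417982_at, adjusted p = 0.0874), the latter with all SMC-IRF9-TG pools above all NTG pools.

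Other lists that draw on SREBP gave no call by brightest probe sets with limma or the methods' t-test. For sterol uptake and transport, 4 of 6 genes were measured and the median was 0.16, with 2 higher at an unadjusted p under 0.05. Npc1, which exports cholesterol from lysosomes, differed by 1.10 (adjusted p = 0.0828). Without NTG pool 2 its adjusted p was 0.0374, and without each other pool it was 0.0950 to 0.283. For its partner Npc2, 1448513_a_at gave 0.65 (adjusted p = 0.136) and 1416901_at gave 1.22 (adjusted p = 0.0179). Among 12 fatty acid synthesis genes, targets of SREBP1, 6 differences were positive and 6 negative around a median of -0.08, with 2 higher and 3 lower at an unadjusted p under 0.05. Fasn, the fatty acid synthase, differed by 0.13 (adjusted p = 0.813) and Scd1, a desaturase, by 0.49 (adjusted p = 0.243; -0.18 by 1415965_at). Acss2, which makes cytosolic acetyl-CoA from acetate, was lower by probe set 1422478_a_at (difference -1.10, adjusted p = 0.0470) but not by the brightest, 1422479_at (difference 0.13, adjusted p = 0.866). Its remaining probe set 1446542_at gave -0.73 (adjusted p = 0.136), with all SMC-IRF9-TG pools under all NTG pools. In the isoprenoid branch 9 of 10 genes were measured, none was under an unadjusted p of 0.05 by limma and 2 were by the methods' t-test, and the median was 0.22. Fnta, a subunit of the prenyl transferases, differed by -0.19 (adjusted p = 0.536) by 1447904_s_at and by 0.50 (adjusted p = 0.174) by 1417465_at, in which the SMC-IRF9-TG pools all lay higher.

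LXR is the nuclear receptor that oxysterols activate, and of 6 measured genes in the list of LXR and its targets 2 were called higher, with a median of 1.34. Nr1h3, which encodes LXRα, differed by -0.18 (adjusted p = 0.692), the only negative difference of the 6. Abca1, the exporter of cholesterol to lipid-poor apolipoprotein, read 7.18, 7.32 and 6.99 in NTG and 8.89, 8.88 and 9.16 in SMC-IRF9-TG pools by 1421840_at. Every SMC-IRF9-TG pool was above every NTG pool, the difference was 1.81 (standard error 0.20, adjusted p = 0.00379 from limma), and it passed without each pool in turn. With the poly-A block the adjusted p was 0.0841, and the methods' t-test called no gene of this list. The other Abca1 probe sets, 1421839_at and 1450392_at, gave -0.17 and -0.23, with both means of the second under the lower quartile. Mylip, a ligase that degrades the LDL receptor, rose by 1.05 (standard error 0.19, adjusted p = 0.0307); without NTG pool 1 and without each SMC-IRF9-TG pool its adjusted p lay between 0.0632 and 0.145. Abcg1, another cholesterol exporter, differed by 1.37 (adjusted p = 0.0552) and by 0.36 (adjusted p = 0.517) by 1455221_at. Apoe, which carries sterol out of macrophages, differed by 3.13 but did not pass (adjusted p = 0.134), with NTG pool 2 at 4.05 and the other NTG pools at 8.78 and 7.25. Srebf1, also an LXR target, is described above and did not pass. In the list of sterol esterification and oxysterols, 5 of 7 genes were measured, none passed by limma or the methods' t-test, 3 were higher at an unadjusted p under 0.05, and the median was 0.67. Ch25h, the 25-hydroxylase induced by interferon, read 4.19, 2.53 and 3.80 in NTG and 5.26, 5.36 and 5.14 in SMC-IRF9-TG pools, apart but not past the threshold (difference 1.75, standard error 0.39, adjusted p = 0.0554). Cyp7b1, which hydroxylates 25-hydroxycholesterol, differed by 1.35 (adjusted p = 0.0819) by its brightest probe set and was higher by 1421074_at (adjusted p = 0.0121), whose NTG mean lay under the lower quartile. The macrophage markers above were higher in the same arrays as Abca1 and Mylip, and the part of those cells was not tested.

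**Figure D4:**
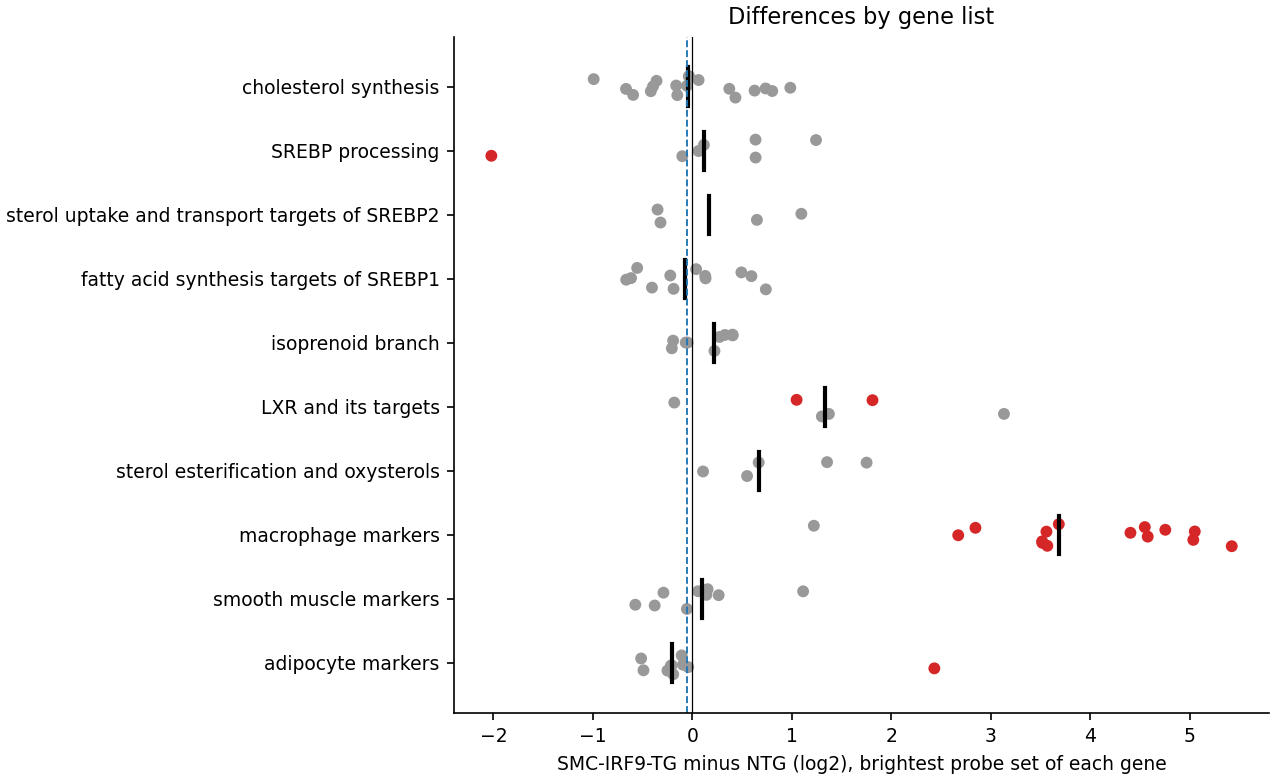
Difference of log2 levels, SMC-IRF9-TG minus NTG, of each measured gene by its brightest probe set (points, red where called) in the 7 pathway lists and 3 marker lists, with each list's median (black bar) and the median of all genes (dashed line). The cholesterol synthesis list is centred at -0.05, the LXR list at 1.34 and the macrophage markers at 3.68.

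Genes whose levels followed the members across the 6 arrays were listed by Pearson's r, as a description over arrays that share the split by genotype. The 11736 genes compared were those whose brightest probe set had a mean over all arrays at or above the median of such means. For Insig1 these were Laptm4b (r = 0.996, difference -0.39), Sorl1 (r = 0.996, difference -1.07, adjusted p = 0.0661 from limma) and Zfp267 (r = 0.993). For Fdps they were Rab13 (r = 0.997), Rab8a (r = 0.997) and Emc8 (r = 0.990), for Idi1 Thap3, Mrpl36 and Rasl11a (r = 0.994 to 0.995), and for Fdft1 Ndufv1, Ndufb7 and A430046D13Rik (r = 0.984 to 0.995). The nearest genes were Sema3d for Hmgcs1 (r = 0.990), Dmd for Sqle (r = 0.991), Ube2r2 for Srebf1 (r = 0.986) and Ptdss1 for Srebf2 (r = 0.992). No member was among the 3 nearest of another, but Fdps lay under that median and could not be listed for any other member. With 3 genes listed of 11736 compared over 6 arrays, this absence does not show whether the members vary together. Correlations between members beyond the 3 nearest are not given here.

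Several facts of the arrays bear on all of these values. Irf9 by 1421322_a_at lay at 4.75 to 5.43 in NTG and 5.41 to 5.58 in SMC-IRF9-TG pools (difference 0.30, adjusted p = 0.436 from limma), which does not check the labels, since it is unknown here which part of the transcript the probes cover. The study's methods give male mice, but Xist, an RNA of female cells, was at 9.94 in NTG pool 1 and 9.50 in NTG pool 2, with the other 4 pools at 2.94 to 4.08. Poly-A controls averaged 6.36 to 9.72 in NTG and 3.95 to 7.53 in SMC-IRF9-TG pools. With a block for the high Xist pools Insig1 differed by -1.36 (adjusted p = 0.210), and with one for the low poly-A pools by -2.51 (adjusted p = 0.209).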

How the data were processed

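All 6 arrays were used, 3 per genotype, grouped by the genotype in the labels. The deposited values are on a log2 scale. RMA and Affymetrix Expression Console are named for them in the submitters' processing notes, without versions; RMA, as run by the authors, subtracts background, normalizes between arrays and combines the probes of each set into 1 value. Array medians ran from 3.42 to 3.66, but the arrays did not share 1 distribution and differed by genotype: lower quartiles were 2.57 to 2.66 in NTG and 2.33 to 2.41 in SMC-IRF9-TG arrays, minima 0.43 to 0.47 and 1.07 to 1.16, and maxima 13.3 to 13.6 and 13.7 to 13.8. Scanner files were not used here, so detection was not checked, and the text says where a group mean is under the lower quartile of the arrays. No column of another sample was present.

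Of 45101 probe sets, the 64 controls were removed, and limma 3.58.1 (lmFit, eBayes, no covariate) in R 4.3.3 compared the genotypes over the remaining 45037 with no filter on level, 2-sided, with Benjamini-Hochberg adjustment over all of them and a threshold of 0.05. The annotation gives a single gene for 34945, several for 932 and none for 9160. Where several probe sets name a gene, the brightest on average stood for it. The methods' t-test for 2 groups was an alternative, because 3 arrays per group leave it few degrees of freedom. The number of arrays limits the precision. Tests were checked on simulated data first.

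The members and the 17 gene lists (1 of members, 7 of pathways and 9 of markers, with 164 genes written and 147 measured) were chosen with earlier results of these data known. The rule for names took all member probe sets, up to 4 called genes in each pathway list or the 2 of highest level where none was called, the 3 genes of highest correlation with each member, and Irf9. Not every gene of this rule is printed, and pathway genes outside it, with the second probe sets of pathway genes, were chosen after their values were seen. Sequences are from RefSeq (GRCm38.p6). Python 3.11.15 with numpy 2.4.6, pandas 2.3.3 and matplotlib 3.10.9 made tables and figures. The 16 alternatives were median centring, quantile normalization, leaving out probe sets whose mean over all arrays is under the median of such means, a trended and robust prior, array weights, the methods' t-test, averaging a gene's probe sets, a block on the replicate number, on high Xist or on low poly-A controls, and each array left out.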

Additional observations from a re-analysis of the deposited data

How the results depend on the processing

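The count of members called lower was 1, and it became 0 with the block for high Xist arrays, the block for low poly-A arrays and the methods' t-test, and ranged from 0 to 1 when each array was left out. Insig1 kept its direction under all 16 alternatives, with differences from -2.51 to -1.36 and adjusted p from 0.0130 to 0.210 (0.190 by the methods' t-test). No member was called higher and no cholesterol enzyme was called in either direction under any of the 16. In the other pathway lists 2 genes were called higher, against 5 with array weights, 4 with probe sets under the median mean level left out (22519 kept), 4 with median centring, 1 with quantile normalization, 1 with the Xist block, 0 with the poly-A block, 0 with the methods' t-test and 1 to 4 without single arrays. Sqle reversed to -0.35 and Fdps to -0.079 with the Xist block, Hmgcs1 to 0.22 as the mean of its probe sets, Sqle to -0.17 and Srebf2 to 0.26 without NTG pool 1, and Srebf2 to 0.00 without SMC-IRF9-TG pool 3; apart from the mean over probe sets and the arrays left out, the cause was not tested. Without single arrays Sqle ranged from -0.17 to 0.73 and Srebf2 from -0.46 to 0.26. Fdps has no value under that filter, which removed both of its probe sets. Over all probe sets 1069 were called higher and 168 lower, and 0 and 1 by the methods' t-test, 174 and 18 with the Xist block, 52 and 3 with the poly-A block, 547 and 153 with quantile normalization, 1497 and 111 with median centring, and 297 to 1268 and 23 to 583 without single arrays. Deviations of arrays with the same replicate number correlated at -0.15 to 0.03 over probe sets, and not every array correlated best with its own number, so the numbers name the pools only; with the replicate number as a block, 659 probe sets were called higher and 71 lower, Insig1 had an adjusted p of 0.0130, and the counts over the lists did not change. The Xist block leaves NTG pool 3 and the poly-A block SMC-IRF9-TG pool 3 as the only pool to compare within its block. Signal over background cannot be read from these values, so small differences in dim probe sets are not resolved.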
